A study of Mus musculus with 12 samples.

Results

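The 10 genes here encode the translation factor Eif5a, enzymes that modify it using a polyamine, or proteins that build, limit or break down polyamines. They were listed as Eif5a, Dhps, Dohh, Odc1, Srm, Sms, Amd1, Oaz1, Oaz2 and Sat1, and a spot counted for a gene when its only annotated symbol was one of these. Of the 10, 8 had such a spot, 1 spot each, among 15081 genes with a spot in all. All 8 had a value on all 12 arrays, which 8707 named genes shared. Dhps and Amd1 were not analysed here. Eif5a was selected on measured values, its NLS minus WT difference averaged over both GH numbers, in which its 6 NLS arrays exceed its 6 WT arrays, and the other genes were listed for their roles around it with results of the same contrast known. Differences of these genes between the receptor forms are therefore given as a description, with standard errors and no p, and the test of that contrast is used only for counts over all features.

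The series concerns a nuclear growth hormone receptor, and the arrays compared mouse samples titled NLS10 with samples titled WT10. NLS is the usual abbreviation of nuclear localization signal and WT of wild type, while the sources used here do not explain the 10. Each form was sampled at numbers written as 1GH and 0GH, which made the groups NLS 1GH, NLS 0GH, WT 1GH and WT 0GH, with 3 arrays each lettered b, c and d. Treatment with human growth hormone at 100 ng/ml is stated for every sample and the experiment type is a time course, so 1GH and 0GH are kept as written, with no time or treatment read into them. The sources used here do not give the cell type, how the receptor was introduced or whether the letters were separate cultures, so p-values measure only the spread between these samples, which may be technical. Each array set the sample in Cy3 against embryonic RNA in Cy5.

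Polyamines are small positively charged molecules that growing cells need. Odc1 makes putrescine from ornithine, Srm and Sms extend it to spermidine and spermine with aminopropyl groups that Amd1 supplies, the antizymes Oaz1 and Oaz2 bind the Odc1 protein and direct it to the proteasome, and Sat1 acetylates spermidine and spermine for breakdown or export. Spermidine is also the source of hypusine, an amino acid that Dhps and Dohh build in sequence on a lysine of Eif5a and that Eif5a needs to help ribosomes through difficult peptide bonds and termination. Growth hormone is known to raise ornithine decarboxylase activity in liver, and the transcription factor Myc is a known activator of Odc1.

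The start-site regions of 4 genes are shown because Myc binds the E-box CACGTG and growth hormone signals through STAT factors, which bind TTCNNNGAA. Sequences are RefSeq promoter windows on GRCm38.p6, 250 bases before to 50 bases after an annotated start, written 5′ to 3′ on the gene's strand with CACGTG in capitals. The windows are chr11:69921337-69921636 (minus strand) for Eif5a, chr10:81384184-81384483 (plus strand) for Dohh, chrX:157492238-157492537 (minus strand) for Sms and chr12:17544623-17544922 (plus strand) for Odc1.
Eif5a: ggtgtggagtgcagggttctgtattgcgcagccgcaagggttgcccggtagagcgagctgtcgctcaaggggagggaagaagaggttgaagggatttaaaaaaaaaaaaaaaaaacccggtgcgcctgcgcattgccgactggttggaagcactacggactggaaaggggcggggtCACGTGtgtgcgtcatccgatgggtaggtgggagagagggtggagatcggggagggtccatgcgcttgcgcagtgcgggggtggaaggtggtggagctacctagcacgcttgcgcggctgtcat
Dohh: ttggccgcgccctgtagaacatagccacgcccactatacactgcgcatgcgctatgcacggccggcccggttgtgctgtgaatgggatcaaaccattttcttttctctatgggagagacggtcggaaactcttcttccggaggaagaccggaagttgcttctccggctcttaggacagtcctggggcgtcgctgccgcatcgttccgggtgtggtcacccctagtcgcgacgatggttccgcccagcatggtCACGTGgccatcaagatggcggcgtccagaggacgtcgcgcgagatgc
Sms: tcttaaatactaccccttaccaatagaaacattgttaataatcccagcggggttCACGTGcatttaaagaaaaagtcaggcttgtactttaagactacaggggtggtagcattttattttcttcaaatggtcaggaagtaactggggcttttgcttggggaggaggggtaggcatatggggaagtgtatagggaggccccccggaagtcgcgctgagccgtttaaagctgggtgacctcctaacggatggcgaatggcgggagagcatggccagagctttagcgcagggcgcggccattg
Odc1: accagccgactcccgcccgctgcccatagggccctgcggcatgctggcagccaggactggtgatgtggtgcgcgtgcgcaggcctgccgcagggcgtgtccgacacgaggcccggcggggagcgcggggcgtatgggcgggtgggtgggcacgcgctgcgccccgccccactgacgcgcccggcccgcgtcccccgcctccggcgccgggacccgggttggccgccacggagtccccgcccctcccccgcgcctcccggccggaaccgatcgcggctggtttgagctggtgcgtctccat
Both strands were searched. CACGTG lay in at least 1 window of 3 of the 9 listed genes with an entry, Eif5a, Dohh and Sms, against 8.09% of 27025 genes. Eif5a had 6 windows and Sms 2, which gave them more chances of a match than a gene with 1 window. In Eif5a it began at position -74 from the start in the window shown, and the 6 windows of the gene held 2 distinct copies. In Dohh it began at position 2 and in the Sms window shown at -196, while the other Sms window held none. The Odc1 window shown held none, and sequence outside the windows, such as that further into the gene, was not searched. TTCNNNGAA lay in 0 of the 9 genes, against 9.55% of all genes, and with so few genes nothing is read from this count. These are matches of letters in a window and say nothing of binding in these samples.

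Levels are log2 ratios of sample over reference, minus the array's median over 10762 tested features, so that 0 is the level of the median feature relative to the embryonic RNA. They rank arrays for 1 gene and do not compare genes. The numerator of the deposited ratio is not stated, and the direction used is likely, because 33 of 39 embryo-tissue genes lay above the array median as deposited. The opposite reading turns every sign below. The log base is inferred from the range of the values. A ratio per array cannot tell a change in RNA per cell from a change in the kinds of cells present. Between 15678 and 19376 non-control spots per array had a value, and spot intensities were not analysed here. The residual standard deviation was 0.637 at the median of the 8 genes (lowest 0.344, highest 1.23), against 1 at the median of all features.

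**Figure D1:**
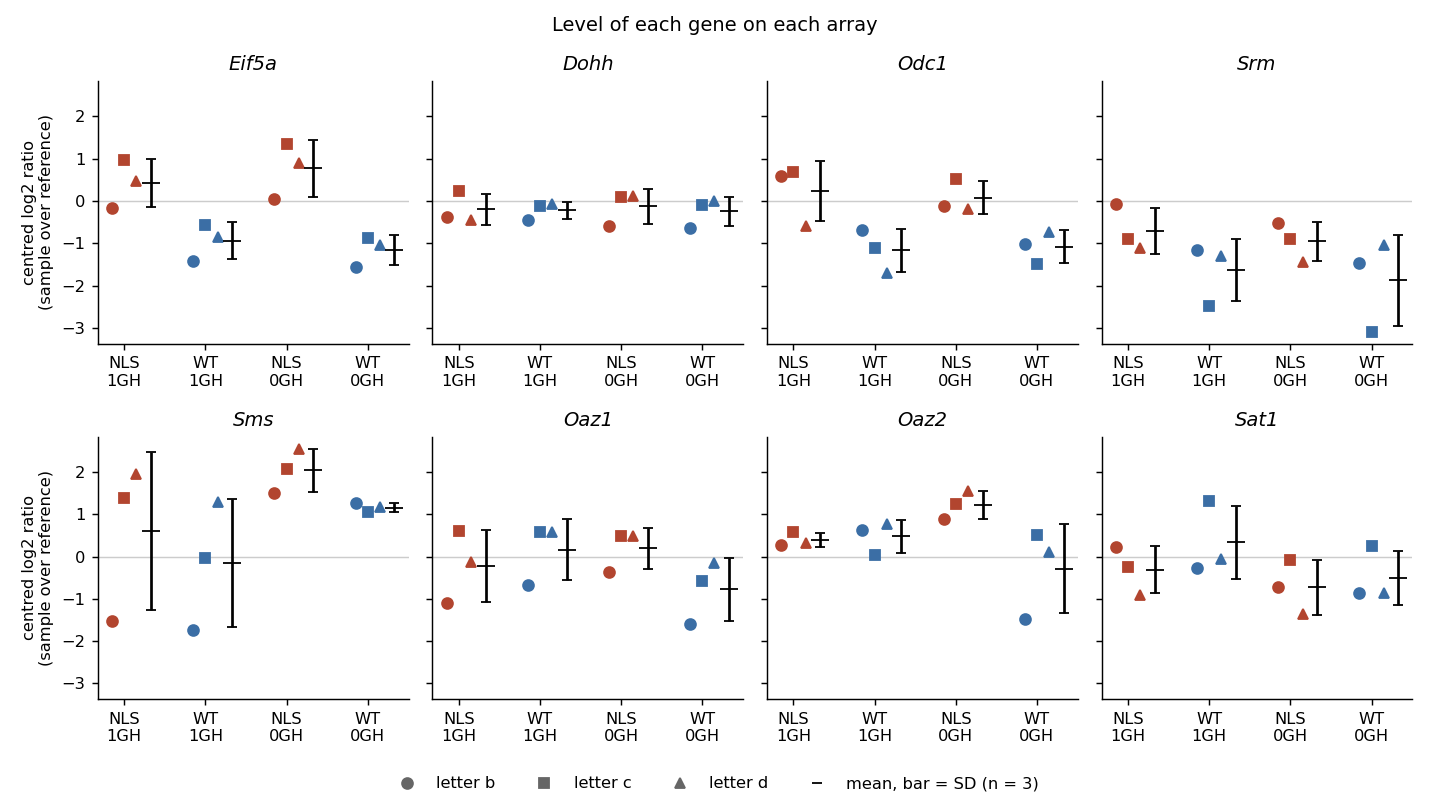
Level of each of the 8 measured genes on each array, as the log2 ratio of sample over reference centred on the array median (y axis), by group (x axis). Symbols mark the letters, colours the receptor form, and black bars the mean with its SD over 3 arrays. Eif5a and Odc1 lie higher on all 6 NLS arrays than on any WT array, while Dohh stays between -0.64 and 0.23 throughout.

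Eif5a had the largest average difference between the receptor forms of the 8 genes, and was higher with NLS in every pair of arrays. At 1GH its centred level was -0.17, 0.97 and 0.48 (letters b, c and d) in NLS, against -1.42, -0.56 and -0.84 in WT. At 0GH it was 0.05, 1.36 and 0.90 in NLS, against -1.57, -0.88 and -1.03 in WT. The forms did not overlap over 6 and 6 arrays, with the lowest NLS array at -0.17 and the highest WT array at -0.56, a pattern shown by 0.567% of features. The letters also kept their order within each group, with c highest and b lowest of the 3. Paired by letter, NLS exceeded WT by 1.24, 1.53 and 1.32 log2 units at 1GH and by 1.61, 2.24 and 1.93 at 0GH. The fitted difference was 1.37 (SE 0.47) at 1GH, a 2.58-fold higher level, and 1.93 (SE 0.47) at 0GH, 3.8-fold higher. Averaged over both numbers it was 1.65 (SE 0.33), 3.13-fold. The group means ran from NLS 0GH (0.77 ± 0.67) through NLS 1GH (0.43 ± 0.58) and WT 1GH (-0.94 ± 0.44) to WT 0GH (-1.16 ± 0.36; SD, n = 3 each). Within each receptor form the 1GH and 0GH arrays overlapped. The RefSeq table also lists an Eif5a-like pseudogene, and whether the spot takes RNA of near-identical copies was not tested.

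Incorporation of the green dye, which labelled the samples, is given in bases per dye molecule. It was 12.8 to 16 (median 14.4) on NLS arrays and 14.2 to 19.2 (median 15.7) on WT arrays. The forms were close at 0GH, with 16.0, 13.7 and 15.1 (letters b, c and d) in NLS, against 16.0, 14.2 and 15.3 in WT. At 1GH the values were 15.5, 12.8 and 13.3 in NLS, against 15.6, 19.2 and 15.8 in WT. With the green dye as a covariate the Eif5a difference averaged over both numbers was 1.42 (SE 0.41). The difference was 0.95 (SE 0.64) at 1GH and 1.89 (SE 0.48) at 0GH.

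Dohh, the hydroxylase that completes hypusine, did not show a separation of this kind. Its level was -0.38, 0.23 and -0.45 in NLS 1GH, against -0.45, -0.13 and -0.07 in WT 1GH, and -0.60, 0.09 and 0.12 in NLS 0GH, against -0.64, -0.10 and 0.00 in WT 0GH. The arrays of both forms overlapped at both numbers, and 3 of the 4 groups had letter b lowest. NLS minus WT was 0.02 (SE 0.37) at 1GH and 0.12 (SE 0.37) at 0GH. The sign of so small a difference was not stable across the settings tried.

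Odc1, the enzyme of the first step, was higher with NLS than with WT in all 6 pairs of the same letter and number. At 1GH its level was 0.59, 0.69 and -0.58 in NLS, against -0.69, -1.11 and -1.70 in WT, and at 0GH it was -0.11, 0.53 and -0.19 in NLS, against -1.02, -1.49 and -0.73 in WT. The highest WT array (-0.69) lay below the lowest NLS array (-0.58), so Odc1 was, beside Eif5a, the other of the 2 genes among the 8 with no overlap over 6 and 6 arrays. The gap is narrow and lies between NLS 1GH letter d and WT 1GH letter b. The difference was 1.40 (SE 0.47) at 1GH, a 2.64-fold higher level, and 1.16 (SE 0.47) at 0GH, 2.23-fold. Letter c had the widest pairs, 1.81 at 1GH and 2.02 at 0GH, and letter d the narrowest, 1.12 and 0.53. Averaged, it was 1.28 (SE 0.33), 2.43-fold. Its order of groups differed from that of Eif5a, with NLS 1GH (0.23 ± 0.70) and NLS 0GH (0.08 ± 0.40) above WT 0GH (-1.08 ± 0.39) and WT 1GH (-1.17 ± 0.51; SD, n = 3 each), and neighbours within a form overlapped.

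Myc had a value on 11 arrays and so lay outside the fit. Its level ranged from 0.89 to 5.48 (median 1.26) on 6 NLS arrays and from -0.39 to 2.46 (median 1.06) on 5 WT arrays, and the ranges overlapped. The array without a value was WT 0GH letter b. At 1GH Myc was at 1.32, 1.19 and 1.09 in NLS, against 1.81, 2.46 and -0.39 in WT. At 0GH it was at 5.48, 0.89 and 2.87 in NLS, against 0.07 and 1.06 (letters c and d) in WT. The arrays overlapped at both numbers.

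The spermidine synthase Srm was higher with NLS by 0.94 (SE 0.61) at 1GH and 0.91 (SE 0.61) at 0GH, with a wide spread. At 1GH its level was -0.08, -0.91 and -1.11 in NLS, against -1.15, -2.48 and -1.29 in WT, a bare separation at -1.11 and -1.15. At 0GH it was -0.52, -0.90 and -1.44 in NLS, against -1.47, -3.09 and -1.05 in WT, where letter d ran the other way. The pairs of letter c were the widest, 1.57 at 1GH and 2.19 at 0GH, and both WT arrays of that letter were the lowest of all 12. Without letter c the difference at 0GH was 0.28.

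Sms, the spermine synthase, was higher with NLS in all 6 pairs, by 0.21 to 1.42 log2 units. In the fit without a block the difference lay below its SE at either number. At 1GH its level was -1.52, 1.39 and 1.95 in NLS, against -1.74, -0.03 and 1.28 in WT, and the arrays overlapped. At 0GH it was 1.51, 2.07 and 2.54 in NLS, against 1.26, 1.05 and 1.17 in WT, without overlap. The difference was 0.77 (SE 0.94) at 1GH and 0.88 (SE 0.94) at 0GH. With letter as a replicate block the SE was 0.70 at either number. Without letter b the difference was 1.04 at 1GH and 1.20 at 0GH (SE 0.58 each). At 1GH single arrays decided the value, which was 1.83 without NLS 1GH letter b and -0.02 without WT 1GH letter b, and with the green dye as a covariate it was -0.07. Amd2, a near-copy of Amd1 whose spot carries its own symbol, was at 0.80, 1.11 and 0.85 in NLS 1GH, against 0.60, 1.48 and 1.40 in WT 1GH, and at 0.90, 1.27 and 0.66 in NLS 0GH, against 0.88, 1.27 and 1.58 in WT 0GH. Its arrays overlapped, and NLS minus WT averaged -0.27 (SE 0.27). Whether the Amd2 spot also takes RNA of Amd1 was not tested.

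Both antizymes were higher with NLS in every letter at 0GH and not at 1GH, and the test of that difference between the numbers, given with the growth hormone contrasts, was not passed. Oaz2 was at 0.28, 0.59 and 0.31 in NLS 1GH, against 0.63, 0.04 and 0.76 in WT 1GH, with overlap, and at 0.89, 1.24 and 1.55 in NLS 0GH, against -1.47, 0.51 and 0.11 in WT 0GH, without overlap. Its difference was -0.08 (SE 0.51) at 1GH and 1.51 (SE 0.51) at 0GH, and the second was 0.92 without WT 0GH letter b. With the green dye as a covariate the value at 1GH was -0.78 (SE 0.64). Oaz1 was at -1.10, 0.60 and -0.14 in NLS 1GH, against -0.67, 0.58 and 0.58 in WT 1GH, and at -0.36, 0.48 and 0.48 in NLS 0GH, against -1.60, -0.57 and -0.16 in WT 0GH. The Oaz1 arrays overlapped at both numbers, though each letter was higher in NLS at 0GH (by 1.24, 1.06 and 0.64). The fitted Oaz1 difference was -0.38 (SE 0.59) at 1GH and 0.98 (SE 0.59) at 0GH. Without centring, the differences at 1GH turned sign, to 0.02 for Oaz1 and 0.32 for Oaz2. RefSeq lists pseudogenes of Oaz1, Oaz2 and Sms, and cross-hybridisation with their RNA was not tested.

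Sat1, which begins polyamine breakdown, was the 1 gene of the 8 with a lower average in NLS. At 1GH it was at 0.22, -0.24 and -0.90 in NLS, against -0.26, 1.32 and -0.05 in WT, and at 0GH at -0.73, -0.07 and -1.37 in NLS, against -0.87, 0.24 and -0.86 in WT. The arrays overlapped at both numbers, and letter b was higher in NLS in both. NLS minus WT was -0.65 (SE 0.57) at 1GH and -0.23 (SE 0.57) at 0GH.

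**Figure D2:**
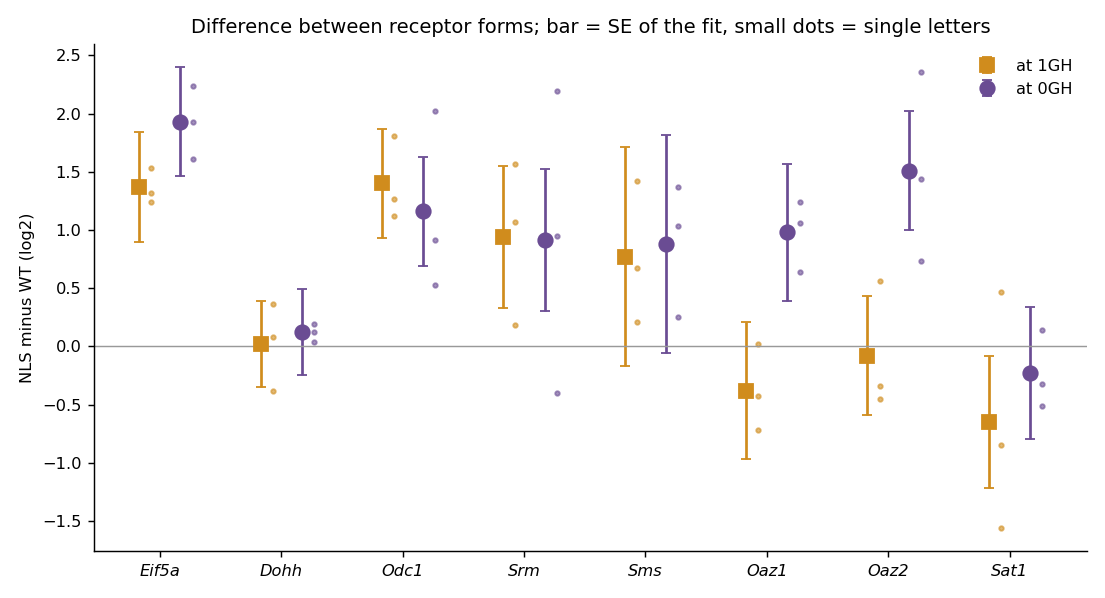
NLS minus WT in log2 units (y axis) for the 8 genes (x axis), at 1GH (squares) and 0GH (circles). Bars are the SE of the fit and small dots the differences within letters b, c and d. Eif5a, Odc1 and Sms are above 0 in every letter at both numbers. Dohh and the antizymes Oaz1 and Oaz2 are above 0 in every letter only at 0GH, and Srm only at 1GH.

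Counted over the list, NLS lay wholly above WT for 3 of 8 genes at 1GH (Eif5a, Odc1 and Srm), against 4.48% of all features, and for 4 of 8 at 0GH (Eif5a, Odc1, Sms and Oaz2), against 4.66%. NLS was higher in all 6 pairs for Eif5a, Odc1 and Sms, against 3.49% of features. Because Eif5a was selected on this contrast and the other genes were listed with its results known, nothing is read from these counts. The averaged difference was above 0 for 7 of the 8, with a median of 0.77, and for 6 of the 7 without Eif5a, with a median of 0.72. Over all features 47.7% were above 0 and the median was -0.03. For the same reason nothing is read from these shares and medians. No feature passed an adjusted p of 0.05 (limma) in NLS minus WT at 1GH, at 0GH or averaged (0% each, of 10762). In the same order, 376, 496 and 567 features had an unadjusted p under 0.05. Where no feature differs, a share of 0.05 is expected under that level, so nothing is read from unadjusted counts here or below. Without centring, the median of all features moved to 0.35 at 1GH and -0.18 at 0GH, with 70.7% and 38.6% of features above 0 against 46.8% and 49.7% with centring, and 7 and 6 of the 8 genes were above 0, against 5 and 7.

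Genes that supply, take up, salvage or break down polyamines were split between the directions. Of 27 listed, 13 had a value on all arrays, and 6 of the 13 were higher in NLS on average (median -0.06). That share is close to the 47.7% of all features. Without centring 8 of the 13 were higher on average and 11 at 1GH, against 56.1% and 70.7% of all features. Slc3a2, the heavy chain shared by several amino acid transporters, was closest to Eif5a in its pattern. It was at 0.53, 1.40 and 1.20 in NLS 1GH, against 0.18, 0.36 and 0.29 in WT 1GH, and at 0.56, 1.41 and 1.20 in NLS 0GH, against 0.10, 0.82 and 0.66 in WT 0GH. It was higher with NLS in all 6 pairs, by 0.65 (SE 0.28) on average, and the arrays overlapped only at 0GH. Oat, which links ornithine to proline and glutamate metabolism, had the largest average in this list, 0.97 (SE 0.76), with -0.05 (SE 1.07) at 1GH and 2.0 (SE 1.07) at 0GH. It rested on letter b, since the value at 0GH was 0.66 without WT 0GH letter b alone, and the average was 0.02 without that letter. Ahcy, which clears S-adenosylhomocysteine, had the lowest, -0.68 (SE 0.57), and Mri1 of the methionine salvage pathway was at -0.58 (SE 0.77). Both turned sign without letter b, to 0.27 for Ahcy and 0.42 for Mri1, and Mri1 was at 0.07 without WT 0GH letter b alone.

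Among factors of translation elongation and termination, the steps Eif5a assists, 11 of 16 listed had a value on all arrays. Of these, 7 of the 11 were higher in NLS on average (median 0.13), against 47.7% of all features. Without centring 8 of the 11 were higher on average and 9 at 1GH, against 56.1% and 70.7% of all features. The ribosome recycling factor Abce1 differed by 0.69 (SE 0.30), the termination factor Gspt1 by 0.53 (SE 0.31) and the elongation factor subunits Eef1b2 and Eef1g by 0.55 (SE 0.44) and 0.42 (SE 0.31). Eef1a1 was at -0.10 (SE 0.35) and Eef2 at 0.13 (SE 0.24), each within 1 SE of 0. Eef2k, the kinase that inactivates Eef2, was at -1.56 (SE 0.78), the lowest of the list, and at -0.60 without letter b.

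**Figure D3:**
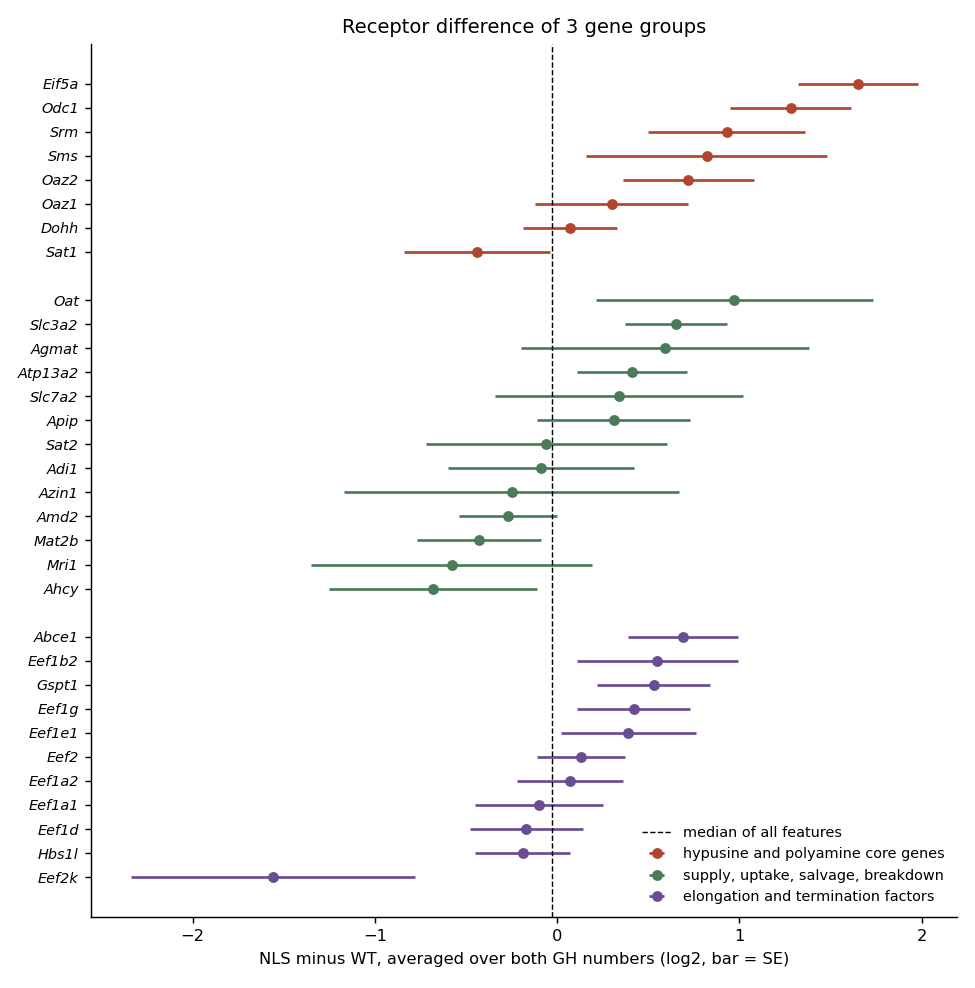
NLS minus WT averaged over both GH numbers, in log2 units (x axis, bars are SE), for the 8 core genes, 13 genes of polyamine supply, uptake, salvage and breakdown, and 11 elongation and termination factors (y axis). The dashed line is the median of all features (-0.03). Right of 0 lie 7 of the 8 core genes, 6 of 13 and 7 of 11 in the other groups, and 47.7% of all features. Eif5a was selected on this contrast and the other core genes were listed with its results known, so nothing is read from these shares.

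The growth hormone number is a contrast that did not enter the choice of genes, and it was tested. None of the 8 genes passed the test of 1GH against 0GH in NLS or in WT (0 of 8, with 0% of 10762 features called in either, limma adjusted p = 1 for each gene). By unadjusted p under 0.05 in this fit without a block, 314 features passed in NLS and 289 in WT, and 0 of the 8 genes in either. Eif5a was lower at 1GH in every NLS letter, with differences of -0.22, -0.39 and -0.41, and higher at 1GH in every WT letter, with differences of 0.15, 0.32 and 0.19. The fitted values were -0.34 (SE 0.47) in NLS and 0.22 (SE 0.47) in WT, and their difference was -0.56 (SE 0.67; limma adjusted p = 1). Of all features, 47.3% in NLS and 52.5% in WT were above 0 in this contrast, and without centring 68.4% and 33% were, with medians of 0.27 and -0.23.

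Odc1, the entry point of the pathway, was at 0.16 (SE 0.47) in NLS and -0.09 (SE 0.47) in WT for 1GH minus 0GH. Srm was at 0.25 and 0.23 (SE 0.61 each) and Dohh at -0.07 and 0.03 (SE 0.37 each). Sms had the largest values, -1.44 in NLS and -1.32 in WT (SE 0.94 each), and letter b carried them, with -3.03 in NLS and -2.99 in WT. Without letter b they were -0.64 and -0.49.

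Oaz2 was lower at 1GH in NLS without overlap of the arrays, with differences of -0.61, -0.65 and -1.24 in the letters, a pattern that 3.43% of features showed. None of the 8 genes was higher at 1GH without overlap, in NLS (3.87% of features) or in WT (2.95%), and none was lower in WT (2.7%). In WT the letters of Oaz2 gave 2.10, -0.47 and 0.66. The fitted values were -0.83 (SE 0.51) and 0.76 (SE 0.51), and their difference was -1.59 (SE 0.72; limma adjusted p = 1, unadjusted p = 0.0518). Without WT 0GH letter b that difference was -1.0, and without centring it was -1.01, while it was -2.24 with the green dye as a covariate and -2.30 without letter c. Oaz1 ran the same way, at -0.41 (SE 0.59) in NLS and 0.94 (SE 0.59) in WT, with a difference of -1.35 (SE 0.83; limma adjusted p = 1). These SE ignore the letters. With letter as a replicate block the SE of Oaz1 was 0.32 in either form and 0.46 for the difference (limma adjusted p = 0.95). Sat1 was at 0.42 and 0.84 (SE 0.57 each), with 0.62, 1.08 and 0.81 in the letters of WT. No gene of the 8 passed the test of a difference between the forms in this contrast, nor did any feature (0%), and 260 features had an unadjusted p under 0.05. That difference was above 0 for 47.3% of features, and without centring for 73.1%, with a median of 0.52.

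**Figure D4:**
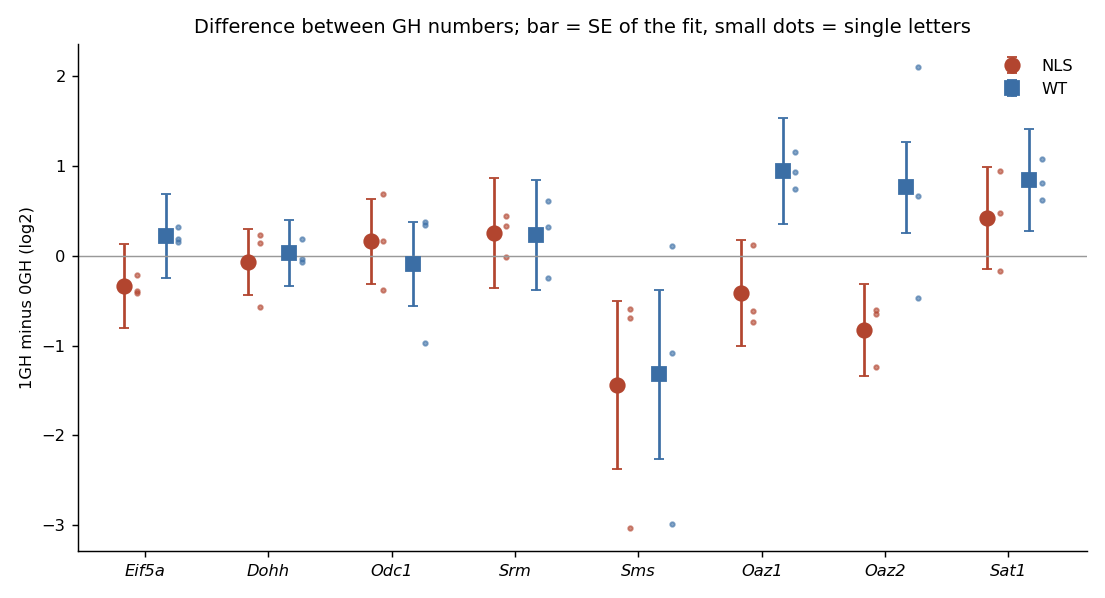
1GH minus 0GH in log2 units (y axis) for the 8 genes (x axis), in NLS (circles) and WT (squares). Bars are the SE of the fit and small dots the differences within letters b, c and d. Oaz1 and Oaz2 lie below 0 in NLS and above 0 in WT, and the Sms values rest on letter b at -3.03 and -2.99.

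Among 8706 other named genes, those most like Eif5a over the 12 centred arrays were the immunophilin Fkbp1a (Pearson r = 0.969), the RNA polymerase subunit Polr2l (0.961), the proteasome subunit Psmd1 (0.960), the co-chaperone Fkbp4 (0.954) and Phgdh, the first enzyme of serine synthesis (0.952). Spearman's rho was between 0.930 and 0.958 for the 5, and without the 2 arrays farthest from the Eif5a median, both letter c of NLS, r was 0.920 to 0.946. These are descriptions over 12 arrays that fall into a group per receptor form and share a reference, so a gene that differs between the forms gives a high value. Among the 6 NLS arrays alone r was 0.982 for Fkbp1a and 0.843 for Fkbp4, and among the 6 WT arrays 0.609 and 0.849. NLS minus WT averaged 1.31 (SE 0.29) for Fkbp1a, 1.23 (SE 0.30) for Polr2l and 2.21 (SE 0.31) for Phgdh. The least like were the actin-severing Gsn (-0.889), the syntaxin Stx2 (-0.878) and the transcription factor Msc (-0.876). Without centring the last were at -0.495, -0.124 and -0.046.

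Within the list, Odc1 was the most like Eif5a (r = 0.718, rank 200, and 0.522 without the 2 arrays farthest from the Eif5a median), followed by Oaz2 (0.645), Oaz1 (0.590), Sms (0.517), Dohh (0.504), Srm (0.315) and Sat1 (-0.149). With each letter's mean subtracted, r was 0.874 for Odc1 and 0.736 for Srm. Within a receptor form Odc1 gave r = 0.186 over 6 NLS and -0.500 over 6 WT arrays, whereas Dohh gave 0.840 and 0.834 and Oaz1 0.928 and 0.874. In the wider lists Slc3a2 reached 0.897 (rank 30), Gspt1 0.830 and Abce1 0.817.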

How the data were processed

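The authors deposited 1 value per spot and array, read here as a log2 ratio between the channels (base inferred from the range, -14.6 to 18.2). Per the series' design text, the authors fitted a Lowess curve over 50% of the data and floored the control channel at 200. The sources used here name neither scanner nor background method. Signs were turned, since embryo-tissue genes lay above the array median as deposited. Of 23040 spots, 902 controls were left out. Of 22138 others, 16720 had 1 symbol, 142 several and 5276 none. Those with a value on all 12 arrays (11245, 50.8%) were kept, and spots of a gene averaged, giving 10762 features (8707 named, 2055 unnamed). Symbols come from GEO's platform annotation, checked by Entrez identifier (16249 matched, 0 updated). Each array was centred on the median of its features (-0.515 to 1.46 before). The precision is limited by the number of arrays.

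limma 3.58.1 (lmFit, eBayes) in R 4.3.3 was fitted on all 12 arrays and 4 groups without a block, two-sided, with Benjamini-Hochberg adjustment over all features of a comparison and a threshold of 0.05. The steps were tested on simulated data. Members, lists and tests were chosen with earlier results of these data known. The named genes are the 10 members, the measured genes of the wider lists, Myc, and the 5 most and 3 least like Eif5a by Pearson r. Per the labels, red dye incorporation was 19.3 (letter b), 19.8 (c) or 17.9 (d) bp per dye molecule on all 4 arrays of a letter. A shared labelling of the reference is inferred from these equal values and is not stated. On that inference the arrays of a letter are paired in the differences by letter and in the replicate block. The main fit does not pair them, so its SE and p ignore the letters. Deviations from group means correlated at 0.0433 to 0.263 within letters and -0.187 to 0.066 between them. Alternatives were the letter as a replicate block (fixed or random), no centring, unaveraged spots, quantile normalization, a minimum of 2 values per group, a robust prior, removal of the outer 5% of ratios at either end, a green dye covariate, and each array or letter left out.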

Additional observations from a re-analysis of the deposited data

Results flagged for a closer look

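Eif5a, 1GH minus 0GH, was below 0 in all 3 letters of NLS and above 0 in all 3 letters of WT, which is what drew attention to it. The difference between the forms was -0.56 (SE 0.67) and did not pass the test (limma adjusted p = 1, unadjusted p = 0.421). It was 0.02 without centring, and with letter as a replicate block its SE was 0.39 and its adjusted p 0.95.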

How the results depend on the processing

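In 25 alternatives per result, 15 of which left out an array or a letter, all 150 counts of features past the adjusted threshold were 0, and the lowest adjusted p was 0.0573. With the replicate block the calls were also 0, and the features with an unadjusted p under 0.05 numbered 565 at 1GH, 750 at 0GH and 854 averaged for NLS minus WT, 470 in NLS and 401 in WT for 1GH minus 0GH, and 399 for the difference between them. Paired by letter in that block, the SE of the Eif5a difference was 0.28 at either number. NLS minus WT kept its sign in all 25 for Eif5a (0.95 to 1.76 at 1GH, 1.63 to 2.29 at 0GH), Odc1 (1.13 to 1.81 and 0.72 to 1.47) and Srm (0.52 to 1.34 and 0.28 to 1.57). Of 600 such member values, 26 had another sign, 14 of them for Dohh. In an alternative chosen after seeing the data, arrays and letters were also left out for the wider lists, where the average ranged from 0.02 to 1.80 for Oat, -1.45 to 0.27 for Ahcy, -1.66 to 0.42 for Mri1 and -2.15 to -0.60 for Eef2k. For the growth hormone contrasts 59 of 600 member values had another sign, and the cause was not tested. Without centring, with or without the replicate block, 1GH minus 0GH was 0.24 for Dohh in NLS, and -0.05 for Eif5a, -0.24 for Dohh and -0.04 for Srm in WT. The difference between the forms was then 0.02 for Eif5a, 0.48 for Dohh, 0.47 for Sms and 0.16 for Sat1. Quantile normalization gave -0.02 for Dohh in WT, and -0.05 for Srm and 0.05 for Sms in the difference. The Srm difference was also -0.05 with at least 2 values per group and -0.02 with the outer 5% left out, and that of Sat1 was 0.01 with the green dye covariate. Leaving out arrays gave, in NLS, -0.31 to 0.18 for Dohh, -0.11 to 0.56 for Odc1, -0.06 to 0.47 for Srm and -0.82 to 0.03 for Oaz1. In WT it gave -0.17 to 0.15 for Dohh, -0.33 to 0.36 for Odc1 and -0.38 to 0.65 for Srm. For the difference it gave -0.34 to 0.10 for Dohh, -0.02 to 0.65 for Odc1, -0.39 to 0.64 for Srm, -0.90 to 0.95 for Sms and -0.79 to 0.07 for Sat1. With 3 arrays a group, spots without intensities and 1 spot per gene, small differences in these genes could not be resolved.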
